A study of Schmidtea mediterranea with 6 samples.

Results

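The poly(A) sites described here are those whose mapped ends were spread over more than 15 nt, taken as the end minus the start coordinate of the site, in the planarian flatworm Schmidtea mediterranea. Of 5054 sites on a custom one-colour Agilent array, 955 (18.9%) were wider than 15 nt and are called wide, and the other 4099 are called narrow. Since many transcript models share a probe, 1 value was kept for each distinct probe sequence, which gave 1377 sequences for wide sites of 5406 in all. The RNA came from sexual-strain animals and from 3 gates of a cell sorter, with 2 arrays each: X1, labelled as stem cells, X2, labelled as progenitor cells, and Xins, labelled as differentiated cells. The labels name no treatment or genetic change. Whether the 2 samples of a gate were sorted separately is not stated, so p-values measure the spread between these samples only, which may be technical. The files do not pair the transcript models with gene names, so the labelled cell types were not checked against marker genes. All 6 arrays lay on 1 slide.

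The end of a messenger RNA is made by cleavage of the growing transcript and addition of a poly(A) tail. The cleavage and polyadenylation specificity factor binds a hexamer a short way upstream of the cut, in animals most often AATAAA or its variant ATTAAA, and the cleavage stimulation factor binds U-rich or GU-rich sequence downstream. Cleavage often falls on several neighbouring bases of a site, so that a site has a width. A choice between separate sites of a gene changes the length of the 3′ untranslated region, and many animal tissues differ in that choice. The X1 gate is known as the cycling fraction of planarian cells, which radiation removes and which is rich in neoblasts, the animal's stem cells.

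Wide sites ran from 16 to 244 nt, with a median of 39 nt and quartiles of 25 and 58.5 nt. By class, 134 sites were 16 to 20 nt wide, 180 were 21 to 30 nt, 333 were 31 to 50 nt and 308 were over 50 nt, of which 53 were over 100 nt. They lay on 902 contigs, 476 on the plus and 479 on the minus strand. At 433 wide sites there were 2 distinct probe sequences, and at no narrow site. Only 1 sequence named both a wide and a narrow site, and 12 of the wide sequences named more than 1 site, so their signal cannot be assigned to 1 of them. The mean number of transcript models was 2.17 per wide site and 2.15 per narrow site, and 40.0% of wide sites and 41.2% of narrow sites had a single model. The number of models per site was therefore close to equal in both kinds of site.

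Stretches of 30 bases from the deposited probe sequences are shown for sites to which the results return: the largest rises and falls, both sequences of the site that a test of unequal change called, a site at the lower limit of width and the widest site. The most 3′ AATAAA of the stretch is in capitals, and a stretch without capitals comes from a probe with neither AATAAA nor ATTAAA. Coordinates are those of the files, whose genome build is not known here.
Contig1945:2917-2983 plus, first sequence: ctgtcgaaaaacttgtagaaaatgttatga
Contig1945:2917-2983 plus, second sequence: aataAATAAAttgaatatgttttttccatt
Contig10432:24998-25062 plus: attttAATAAActtttttatttaaatattt
Contig11981:18488-18510 plus: gtttctatttaaAATAAAataatgttgata
Contig7138:11162-11216 minus: aaaacgaatctttaaatgAATAAAtgttgt
Contig532:122619-122694 minus: tgacctatcctataaagtttgttgttatta
Contig226:72179-72221 minus: tatgAATAAAttattttttgtttgattacg
Contig6828:2795-2864 minus: taatgcaaaatgatttagtgAATAAAtgtg
Contig2:461489-461505 plus: cttcAATAAAtataattatttatttatttt
Contig1101:26676-26920 minus: aaatgtgattaattgcggctgagactttat

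The canonical hexamer was least frequent at the widest sites. AATAAA stood in 39.5% of wide sequences, against 46.7% of narrow sequences and 44.9% of all. By class its share was 45.3% at 0 to 5 nt, 51% at 6 to 10 nt, 53.7% at 11 to 15 nt, 46.3% at 16 to 20 nt, 54.7% at 21 to 30 nt, 40.2% at 31 to 50 nt and 27.7% over 50 nt, and it was 15.1% over 100 nt. The share thus did not fall steadily with width, and was below that of all sequences only above 30 nt. Neither AATAAA nor ATTAAA was present in 50.1% of wide sequences, 44.2% of narrow sequences and 63.4% of sequences over 50 nt. These shares describe the probe window, and no match says only that the letters are not in that window. On the opposite strand, TTTATT stood in 28.2% of wide and 22.8% of narrow sequences, and in 24.6% of those over 50 nt. Among sequences over 50 nt the canonical hexamer and its reverse complement were thus at similar shares.

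Probe length differs between the kinds of site and bears on these shares. Each wide probe was 60 nt long, whereas narrow probes ran from 45 nt at a width of 0 nt to 60 nt at 15 nt. In a window of equal size, 10 to 35 nt from the 3′ end of the probe, AATAAA stood in 29.4% of wide and 45.8% of narrow sequences. Within that window the share was 44.5%, 49.9% and 51.7% in the classes of 0 to 5, 6 to 10 and 11 to 15 nt, then 40.3%, 42.5%, 29.1% and 17.9% in the classes from 16 to 20 nt upward. The last AATAAA began at a median of 26 nt from the 3′ end in wide sequences (quartiles 20 and 34) and 23 nt in narrow sequences (quartiles 21 and 25). The hexamer was more scattered in wide probes. The files do not say where within a wide site its 60 nt were taken. Occurrences that overlapped were counted separately, and 11% of wide and 8.39% of narrow sequences held 2 or more of either hexamer.

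Wide sites were far more often detected than narrow sites, in every gate. A sequence counted as detected where the scanner software marked at least 50% of its spots on an array as well above background. The mean share of wide sequences detected was 55.4% ± 5.19 in X1, 59.7% ± 3.95 in X2 and 61.3% ± 2.93 in Xins (SD, n = 2 arrays each). For narrow sequences it was 18.1% ± 2.74, 18.5% ± 2.18 and 16.8% ± 2.72 in the same order. The gap between wide and narrow, in percentage points, was 39.1 and 35.6 on the X1 arrays, 42.4 and 39.9 on the X2 arrays, and 44.7 and 44.4 on the Xins arrays. In each gate array 1 detected more of both kinds than array 2. The gap was many times the spread between arrays of a gate.

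Over all arrays, 1002 of the 1377 wide sequences (72.8%) were detected at least once, at 725 sites, and 375 sequences were detected on no array. No sequence was detected on any array at 230 wide sites. On all 6 arrays, 635 wide sequences (46.1%) and 414 narrow sequences (10.3%) were detected. A failed detection says that the signal was not above background and not that the site is unused.

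**Figure D1:**
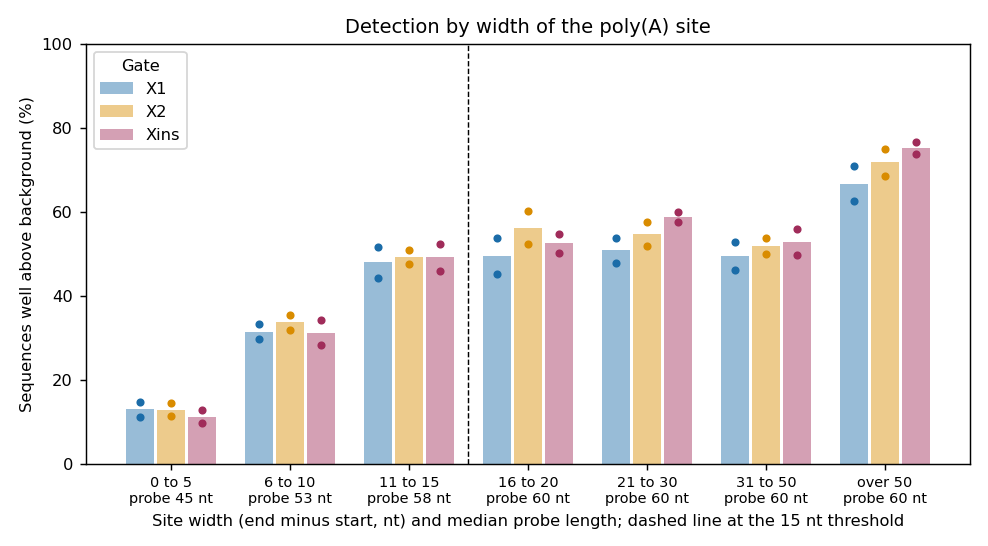
Share of probe sequences well above background (y axis, %) by width class of the poly(A) site (x axis, nt, with the median probe length below), for X1, X2 and Xins. Bars are means of 2 arrays and dots single arrays. The shares climb over the first 3 classes, where probes lengthen, lie between 48.0% and 58.7% from 11 to 50 nt, and are highest over 50 nt.

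Most of the gap lay in the narrowest sites, which had the shortest probes. Narrow sequences with 45 nt probes, at sites of 0 nt, were detected at 10.3%, 10.1% and 8.60% in X1, X2 and Xins. Narrow sequences with 60 nt probes, at sites of 15 nt, were detected at 51.1% ± 0, 52.1% ± 4.51 and 58.5% ± 4.51, though only 47 sequences were of this kind. Wide sequences of 16 to 50 nt, with probes of the same length, were at 49.8% ± 4.85, 53.6% ± 3.7 and 54.4% ± 3.39. Set against the 60 nt narrow probes, the wide share differed by 4.38 points in X1, 7.53 in X2 and 2.82 in Xins, as means of 2 arrays. The differences for wide sites of 16 to 50 nt ran from -4.95 to 2.20 points over the 6 arrays, so they had no common sign. Width and probe length cannot be told apart below 15 nt. Just inside the threshold, at 16 nt, 45.2% of 45 sequences were detected as a mean over 6 arrays, and just outside it, at 15 nt, 53.9% of 47 sequences.

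Among probes of equal length, detection stepped up in the widest class. Sequences over 50 nt had a detected share of 66.7% ± 5.85 (X1), 71.8% ± 4.47 (X2) and 75.3% ± 2.0 (Xins). On each array this was 16.1 to 21.9 points above the sequences of 16 to 50 nt. Over 100 nt, 86 sequences reached 86.0% ± 4.93, 89.0% ± 2.47 and 90.7% ± 0. GC content moved with this step: its median was 21.7% in sequences of 16 to 50 nt, 25% in those over 50 nt and 26.7% in those over 100 nt.

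GC content went with detection in every set. As means over 6 arrays, wide sequences with GC up to 15% were detected at 12.5%, and the share was 45.4%, 66.7%, 76.3% and 89.8% in the next bins, up to GC over 30%. Narrow sequences with probes of 56 to 60 nt gave 5%, 29.4%, 63.6%, 73.8% and 82.0% in the same bins. Wide sequences as a whole thus lay above narrow ones of near-equal probe length in each bin. The mean gap was smallest, at 76.3% and 73.8%, for GC over 25 to 30%. These narrow bins held only 25 to 89 sequences each. Wide sequences of 16 to 50 nt alone were above these narrow ones for GC up to 20%. For GC over 20% they were close to them, and at 62.7% against 63.6% they were below for GC over 20 to 25%. Among wide sequences, those over 50 nt and those of 16 to 50 nt were detected at 14.2% and 12.2% for GC up to 15%, 48.4% and 44.4% for GC over 15 to 20%, and 76.1% and 62.7% for GC over 20 to 25%. For GC over 25 to 30% the shares were 79.5% and 73.8%, and for GC over 30% they were 94.4% and 83.5%. Within each bin the gap was thus smaller than the 16.1 to 21.9 points found without binning.

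**Figure D2:**
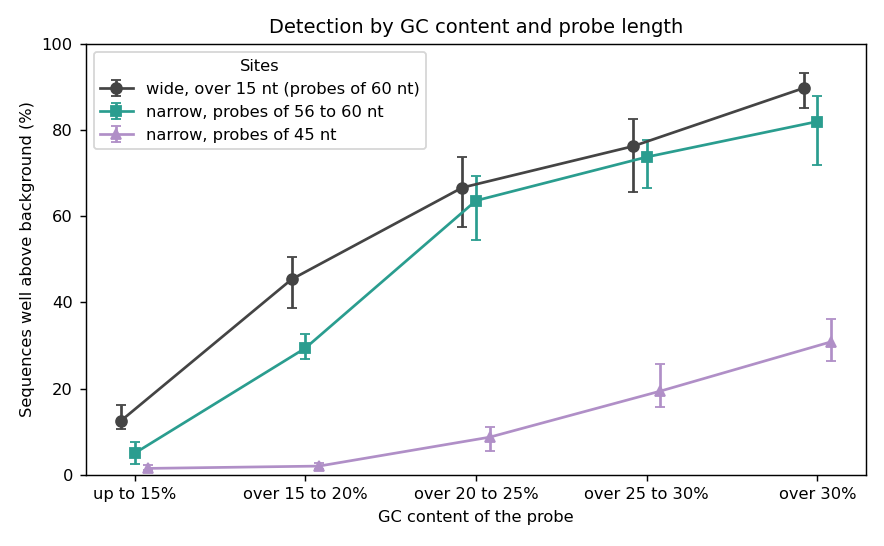
Share of sequences well above background (y axis, %) by GC content of the probe (x axis, bins) for wide sites, narrow sites with probes of 56 to 60 nt, and narrow sites with probes of 45 nt. Points are means over 6 arrays and bars run from the lowest to the highest array. The wide sequences lie above the long-probe narrow ones, with array ranges apart at GC up to 20% and overlapping above it, and the 45 nt probes stay at or under 30.9%.

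Detected wide sequences were also brighter. Their median log2 processed signal was 5.95 in X1, 6.16 in X2 and 6.13 in Xins, against 4.38, 4.55 and 4.37 for detected narrow sequences. The difference was 1.54 to 1.82 on the 6 arrays. At equal probe length the order was mixed. Detected narrow sequences with 60 nt probes had medians of 5.85, 6.28 and 5.15 in X1, X2 and Xins. Detected wide sequences of 16 to 50 nt had 5.57, 5.76 and 5.55. Sequences over 50 nt had medians of 6.68, 7.04 and 6.98. A probe's brightness depends on its own sequence and length, so these medians describe the probe sets and do not rank transcripts by abundance.

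Hexamer content and detection were related among wide sequences. Those with AATAAA were detected at 51.8% as a mean over 6 arrays, those with neither hexamer at 65.6%, and those with 2 or more hexamers at 35.1%. Their median GC contents were 21.7%, 23.3% and 20%, and their median widths 33, 45.5 and 33 nt. The part of GC content and width in this order was not tested.

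On these arrays, the median signal of wide sequences minus that of narrow sequences was lowest in X1, higher in X2 and highest in Xins. Tested were the sequences that both arrays of some gate detected, and signals were set against each array's 75th percentile, taken over the 1049 sequences detected on all 6 arrays. That left 846 wide sequences (61.4% of them, at 620 sites) and 732 narrow ones (18.2%). The median log2 signal of the tested wide minus that of the tested narrow sequences was 1.1 and 1.12 on the X1 arrays, 1.42 and 1.63 on the X2 arrays, and 1.86 and 2.07 on the Xins arrays. The gates did not overlap. Among the 635 wide and 414 narrow sequences detected on all 6 arrays, the difference was 0.79 and 0.81 in X1, 0.88 and 1.13 in X2, and 1.46 and 1.69 in Xins, again without overlap. The median fold change per sequence did not follow this order throughout: in that set, the wide minus the narrow median of the log2 fold change was 0.25 in Xins against X1, -0.01 in X2 against X1 and 0.23 in Xins against X2. Scaling of an array shifts both medians equally and leaves this difference as it is. With 2 arrays a gate, the exact permutation test (two-sided) gave p = 0.333 for each pair of gates, which is the smallest value this design allows.

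The order held in part against probes of similar length. Against tested narrow sequences of 11 to 15 nt, whose probes were 56 to 60 nt long, the difference was 0.23 and 0.18 in X1, 0.19 and 0.50 in X2, and 0.76 and 1.07 in Xins. The Xins arrays stood above the others, and X1 and X2 overlapped. Among sequences detected on all 6 arrays, the difference was 0.50 and 0.63 in X1, 0.70 and 0.95 in X2, and 1.21 and 1.35 in Xins. The gates did not overlap in that set. Tested wide sequences of 16 to 50 nt were also set against the tested narrow ones of 11 to 15 nt. The difference was -0.071 and -0.25 in X1, -0.14 and 0.0022 in X2, and 0.24 and 0.42 in Xins. In the tested set, both arrays of a gate were thus above the narrow sequences in Xins alone. Among sequences detected on all 6 arrays, every array was above them. The differences were 0.18 and 0.24, 0.10 and 0.52, and 0.60 and 0.63 in the same order. Tested sequences over 50 nt were above the tested narrow ones by 1.0 and 0.89 in X1, 0.95 and 1.14 in X2, and 1.60 and 2.11 in Xins. Each gate is a mixture of cells, so a change in the share of a cell type and a change of RNA per cell cannot be told apart here or in the contrasts that follow.

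**Figure D3:**
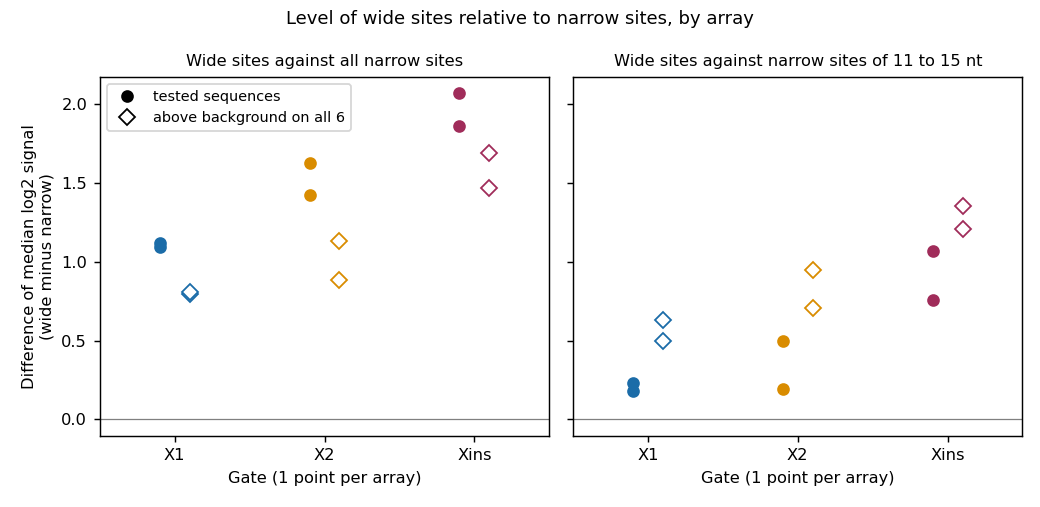
Median log2 signal of wide sequences minus that of narrow sequences (y axis) on each array of X1, X2 and Xins (x axis), for tested sequences (filled) and sequences above background on all 6 arrays (open). The left panel uses all narrow sites and the right panel those of 11 to 15 nt. The Xins arrays are highest in both panels.

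Xins against X1 asked how sites differ between cells labelled as differentiated and as stem cells. Here wide sites were called higher more often than narrow sites. In limma's test with Benjamini-Hochberg adjustment and a threshold of 0.05, 248 wide sequences (29.3%, at 196 sites) were higher and 176 (20.8%, at 127 sites) lower in Xins. Over all tested sequences 24.3% were higher and 25.7% lower. Of the narrow sequences, 136 were higher and 230 lower. Calls were thus as frequent in both kinds of site, at 50.1% of wide and 50% of narrow sequences against 50.1% of all, and their direction was split differently: 58.5% of the wide calls and 37.2% of the narrow calls were rises. At similar probe length the split was closer: rises were 48.7% of the calls at narrow sites of 11 to 15 nt (37 rises, 39 falls). They were 48.2% at wide sites of 16 to 20 nt (27 rises, 29 falls). The share was 63.3% at wide sites of 21 to 30 nt, 55.2% at 31 to 50 nt and 62.2% over 50 nt. In the authors' value table, rises were 79.1% of all wide calls and 54.1% of all narrow calls. Among sequences detected on all 6 arrays they were 49.8% and 36.0%.

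The median log2 fold change, Xins minus X1, was 0.15 in wide, -0.49 in narrow and -0.19 in all tested sequences. The sign of the wide median depended on the scaling, being -0.03 with the percentile taken over all sequences. The wide median stayed above the narrow one under each alternative tried, by 0.06 to 0.82. The other percentile and the replicate block cannot move this difference, which was 0.64 with both and in the main fit. No test of the difference between the sets was run. Where at least 1 array of the dimmer gate was above background, the median fold was 6.54 among 195 rises and 3.64 among 161 falls. The other array of that gate could be at background. In sequences over 50 nt such rises had a median of 12.1-fold over 83 sequences. The falls numbered 93 without X1 replicate 1, 103 without X1 replicate 2 and 111 without Xins replicate 1.

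The largest rises, among sequences detected on all 4 arrays compared, were at Contig1945:2917-2983 and Contig10432:24998-25062. The first is 66 nt wide and carries the model OX_Smed_1.0.03368. Its first sequence had log2 signals relative to the array's percentile of -3.05 and -3.74 in X1, 0.85 and 0.66 in X2, and 4.28 and 5.84 in Xins. The gates stood in that order, though a lack of overlap between X1 and Xins was a condition of the choice. The log2 fold change in Xins against X1 was 8.45 (SE 0.58, adjusted p = 0.000639). The second, 64 nt wide with the model OX_Smed_1.0.23231, had -1.77 and -1.38 in X1, 0.46 and 0.82 in X2, and 4.35 and 6.37 in Xins. It was higher by 6.94 on the log2 scale (SE 0.66, adjusted p = 0.000751). Both are in the widest class.

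The falls that were largest were at Contig11981:18488-18510 and Contig7138:11162-11216. The first, 22 nt wide with the model mk4.011981.01.01, had 0.55 and 0.33 in X1, -2.06 and -1.89 in X2, and -4.75 and -4.01 in Xins. Its log2 fold change was -4.82 (SE 0.39, adjusted p = 0.000639). The second, 54 nt wide with the model OX_Smed_1.0.17643, had 0.67 and -0.27 in X1, -2.57 and -2.88 in X2, and -4.93 and -3.70 in Xins, a change of -4.51 (SE 0.55, adjusted p = 0.00149). The other sequence at Contig7138, 39 nt downstream, was well above background on none of the arrays. At both sites X2 lay between the other gates. The same held for 82.8% of the wide and 82.5% of the narrow sequences called in Xins against X1, with the median X2 position at 0.37 and 0.34 of the way to Xins.

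X2 against X1, labelled as progenitors against stem cells, gave far fewer calls, and most were rises. Calls in either direction covered 8.16% of wide sequences and 6.78% of all tested ones. In limma's test 60 wide sequences (7.09%, at 48 sites) were higher and 9 (1.06%, at 7 sites) lower in X2, against 5.39% and 1.39% of all tested sequences. Of the narrow sequences 25 were higher and 13 lower. Rises were 87.0% of the wide and 65.8% of the narrow calls. At narrow sites of 11 to 15 nt, with probes of similar length to the wide ones, 7 of 9 calls were rises. At wide sites of 16 to 20 nt 3 of 3 calls were rises, and at wide sites of 31 to 50 nt 15 of 22. Wide sites of 21 to 30 nt had 11 rises and 1 fall, and those over 50 nt had 31 rises and 1 fall. Among all wide and all narrow calls, rises were 74.5% and 44.6% with the percentile over all sequences. With normexp and quantile normalization they were 63.6% and 34.5%. Of the 60 rises, 31 were in sequences over 50 nt, where 9.12% of 340 were called higher and 1 was called lower.

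These counts rested on few arrays. Without X1 replicate 1, X1 replicate 2, X2 replicate 1 and X2 replicate 2 in turn, there were 17, 20, 12 and 8 rises and 2, 3, 0 and 0 falls, with 15 falls without either Xins array. At an unadjusted p under 0.05, limma called 224 wide sequences in the full set. The median log2 fold change was 0.12 in wide and -0.03 in narrow sequences, and the wide median was the lower one without X2 replicate 2, by 0.02, and among sequences detected on all 6 arrays, by 0.01. Where at least 1 array of the dimmer gate was above background, the median fold was 7.67 over 40 rises and 5.37 over 8 falls.

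At both named rises the X2 arrays lay above those of the other gates. At Contig532:122619-122694, 75 nt wide, the signals were -1.56 and -1.87 in X1, 3.52 and 3.39 in X2, and 1.79 and 2.78 in Xins. The log2 fold change in X2 against X1 was 5.17 (SE 0.43, adjusted p = 0.00609), and Xins against X2 gave -1.17 (adjusted p = 0.0812). Its other sequence, 31 nt downstream, gave 5.16 and -1.21. At Contig21132:1622-1648, 26 nt wide, the signals were -3.69 and -5.05 in X1, 0.46 and 0.87 in X2, and -1.85 and 0.04 in Xins, a change of 5.03 in X2 against X1 (SE 0.73, adjusted p = 0.0147). At this site the adjusted p was 0.0744 without X2 replicate 1 and 0.0746 without X2 replicate 2, and 0.0620 with normexp and quantile normalization.

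The falls in X2 against X1 were at Contig7138, described above, and Contig226. At Contig7138 the log2 fold change was -2.92 (SE 0.55, adjusted p = 0.0259). At Contig226:72179-72221, 42 nt wide, the signals were -2.17 and -2.57 in X1, -5.33 and -5.16 in X2, and -6.87 and -6.46 in Xins, with a change of -2.88 (SE 0.36, adjusted p = 0.0129). X1 and X2 did not overlap at either site, which the choice of named sites required, and Xins lay below both. Neither call held when X1 replicate 1, X2 replicate 1 or X2 replicate 2 was left out: the adjusted p was 0.110, 0.104 and 0.115 at Contig7138, and 0.0712, 0.0790 and 0.0655 at Contig226. At Contig7138 it was 0.0506 without X1 replicate 2.

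Xins against X2, labelled as differentiated cells against progenitors, split much as Xins against X1 did. Calls in either direction covered 31% of wide sequences and 30.8% of all tested ones. In limma's test 151 wide sequences (17.8%, at 119 sites) were higher and 111 (13.1%, at 81 sites) lower in Xins, against 14.6% and 16.2% of all tested sequences. The narrow sequences gave 80 rises and 144 falls. Rises made up 57.6% of wide and 35.7% of narrow calls, and 83.8% and 66.9% in the authors' value table. They were 45.6% and 29.8% among sequences detected on all 6 arrays. With replicate number fitted as a block they were 45.1% and 29.8%. At narrow sites of 11 to 15 nt, with probes of similar length to the wide ones, rises were 52.2% of the calls (24 rises, 22 falls). Wide sites of 16 to 20 nt were below that, at 41.5% (17 rises, 24 falls). The share was 67.4% at wide sites of 21 to 30 nt, 52.4% at 31 to 50 nt and 64.8% over 50 nt. This contrast shares its Xins arrays with Xins against X1, so the likeness of the splits is not independent.

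The median log2 fold change was -0.14 in wide and -0.57 in narrow sequences, and with no filter on detection the wide median was the lower one by 0.01. With at least 1 array of the dimmer gate above background, the median fold was 6.09 over 129 rises and 3.10 over 95 falls. The rises numbered 71 and 69 without X2 replicates 1 and 2. The falls numbered 61 and 66 without X1 replicates 1 and 2, 14 and 18 without X2 replicates 1 and 2, and 40 and 50 without Xins replicates 1 and 2. The count of falls in this contrast therefore depended on every array.

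At Contig6828:2795-2864, 69 nt wide, X1 and X2 were alike and Xins was high. The signals were -3.20 and -4.13 in X1, -3.72 and -3.22 in X2, and 2.72 and 3.47 in Xins. The log2 fold change in Xins against X2 was 6.56 (SE 0.49, adjusted p = 0.00390), and X2 against X1 gave 0.20 (adjusted p = 0.833). At Contig2:461489-461505, 16 nt wide, the signals were -7.54 and -7.70 in X1, where neither array was well above background, -5.83 and -5.30 in X2, and 1.02 and -0.61 in Xins. The change in Xins against X2 was 5.77 (SE 0.58, adjusted p = 0.00492). A bound was set against the lowest signal well above background on each X1 array, or the sequence's own where higher. By it, this sequence was at least 161-fold higher in Xins than in X1. Limma's test of the change without the bound gave adjusted p = 0.000639. With normexp and quantile normalization, the change in Xins against X2 was 2.54 and not 5.77.

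The 2 falls named for Xins against X2 were at Contig587:24812-24829, 17 nt wide, and Contig169:51255-51286, 31 nt wide. At Contig587 the signals were -5.33 and -5.18 in X1, -3.65 and -2.84 in X2, and -6.45 and -5.38 in Xins, a change of -2.67 (SE 0.49, adjusted p = 0.0133). X2 was the highest gate there. At Contig169 they were 2.74 and 3.33 in X1, 2.99 and 3.56 in X2, and 0.29 and 0.92 in Xins, also a change of -2.67 (SE 0.43, adjusted p = 0.00993), with X1 and X2 overlapping. Without X2 replicate 2 the adjusted p was 0.0678 at Contig587 and 0.0540 at Contig169, and with normexp and quantile normalization it was 0.0773 at Contig587.

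**Figure D4:**
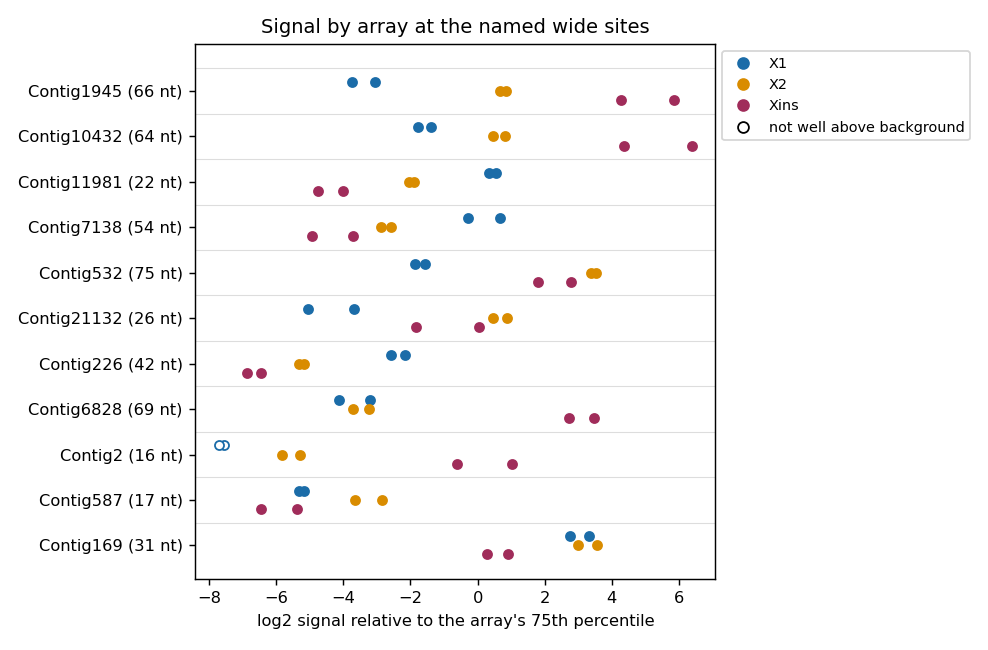
Log2 signal relative to the array's 75th percentile (x axis) at 11 wide sites named for the largest changes (rows, with the width), for the 2 arrays each of X1, X2 and Xins. Open points were not well above background. Most rows run in the order of the gates, while both X2 arrays are above all others at Contig532, Contig21132 and Contig587.

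Over the 3 gates together, the F test called 395 wide sequences (46.7%), against 46.6% of all tested sequences. The share was 46.6% for narrow sequences. Wide sequences were thus called about as often as all tested ones.

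The sites with the largest F among those called in each contrast were Contig1945, described above, Contig3138:3264-3373 and Contig3124:57999-58030. At Contig3138, 109 nt wide, the signals were -4.14 and -4.70 in X1, -2.07 and -2.61 in X2, and 2.17 and 2.13 in Xins, with log2 fold changes of 6.57 in Xins against X1, 2.08 in X2 against X1 and 4.49 in Xins against X2. At Contig3124, 31 nt wide, they were -4.94 and -4.84 in X1, -2.71 and -2.37 in X2, and 0.17 and -0.23 in Xins, with changes of 4.86, 2.35 and 2.51 in the same order. The other sequence of Contig3124, 14 nt downstream, was dimmer and gave changes of 4.99, 2.5 and 2.5. Both sites climbed from gate to gate with no overlap of arrays, though they were chosen as called in every contrast.

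The 5 widest sites with a tested sequence were named whatever their values, and 2 of them were called in a contrast. At Contig1101:26676-26920, the widest at 244 nt, the signals were 2.34 and 2.49 in X1, 2.79 and 2.90 in X2, and 3.72 and 3.81 in Xins. The gates did not overlap, and the log2 fold change in Xins against X1 was 1.35 (SE 0.33, adjusted p = 0.0154). Its other sequence did not overlap the first and gave 0.67 (adjusted p = 0.13). At Contig3258:9565-9737, 172 nt wide, the signals were -4.02 and -4.24 in X1, -2.0 and -1.32 in X2, and -0.60 and 0.00 in Xins, with a change of 3.83 in Xins against X1 (SE 0.42, adjusted p = 0.00103).

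The other 3 of these sites gave no call. At Contig1959:52544-52767, 223 nt wide, the log2 fold change in Xins against X1 was 0.46 (SE 0.40, adjusted p = 0.355). At Contig1991:54179-54390, 211 nt wide, it was 0.43 (SE 0.38, adjusted p = 0.373). At Contig12923:4978-5162, 184 nt wide, it was -1.03 (SE 0.59, adjusted p = 0.183). Its signals were 6.02 and 5.91 in X1, 6.19 and 7.11 in X2 and 4.17 and 5.69 in Xins. The last was the brightest of the 5, and its Xins arrays lay below its X1 arrays.

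Signal in a single gate was rare among wide sites. Well above background on both X1 arrays and no other were 2 wide sequences, against 1.52% of all tested sequences, and 22 narrow ones. For X2 it was 5 wide sequences, against 0.444% of all, and 2 narrow ones. For Xins it was 25 wide sequences at 24 sites, against 3.42% of all, and 29 narrow ones. In shares of the tested sequences, X1 alone held 0.236% of wide and 3.01% of narrow sequences, X2 alone 0.591% and 0.273%, and Xins alone 2.96% and 3.96%.

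The brightest of the Xins-only sequences was at Contig4622:30302-30346, with -2.70 and -2.79 in Xins, at least 15.5-fold higher in Xins than in X1. At Contig19555:2044-2063 the bound was at least 16.6-fold, and at Contig4621:5795-5826 at least 15.4-fold. Since these sequences were chosen for detection in a single gate, their folds are a description, with no test. All 3 sequences held AATAAA or ATTAAA. Of the X2-only sequences, that at Contig7244:15421-15456 was at least 6.51-fold higher in X2 than in X1, that at Contig3599:24863-24932 at least 3.46-fold and that at Contig2029:64154-64171 at least 3.59-fold.

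At some of these sites the other probe sequence was above background in other gates too. The X1-only sequence at Contig1386:40372-40403 had -5.90 and -5.48 in X1, while the site's other sequence, 11 nt upstream, was well above background on all 6 arrays. That sequence had -0.03 and 0.50 in X1, -1.36 and -0.18 in X2, and -2.27 and -1.51 in Xins. The other sequence at Contig3599 was likewise above background on all 6 arrays. At the second X1-only site, Contig2059:82606-82653, the other sequence was above background on 3 arrays. At Contig7244 and Contig4621 the other sequence was above background on none.

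Sites with 2 probe sequences gave a check within the site. Of the 433 such sites, all wide, the sequences overlapped by 10 nt or more at 390, with a median offset of 15 nt over those pairs (quartiles 5 and 27, maximum 50). Both sequences were tested at 234 sites, 1 at 89 and neither at 110. In overlapping pairs with a single tested sequence it was the upstream one at 64 sites and the downstream one at 10. On single arrays, 56 to 77 pairs had the upstream sequence alone above background and 12 to 16 the downstream one. Median GC content was 23.3% upstream and 21.7% downstream, and its part in this was not tested.

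Where both sequences were tested, at 208 overlapping and 26 other pairs, their fold changes were mostly alike. Their log2 fold changes had the same sign at 224 of 234 sites in Xins against X1, 215 in X2 against X1 and 223 in Xins against X2. The median absolute difference was 0.15, 0.11 and 0.11 on the log2 scale. Both sequences were called at 103, 15 and 63 sites, each time in the same direction, and only 1 at 23, 5 and 18. Pearson's r across sites was 0.96, 0.92 and 0.98. Since overlapping probes share most of their bases and all pairs share the arrays, r is a description only. At the 26 sites whose sequences did not overlap, r was 0.88, 0.51 and 0.95, the sign was the same at 24, 18 and 26 sites, and the median absolute difference was 0.43, 0.29 and 0.18. The likeness was thus weaker there, most of all in X2 against X1.

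**Figure D5:**
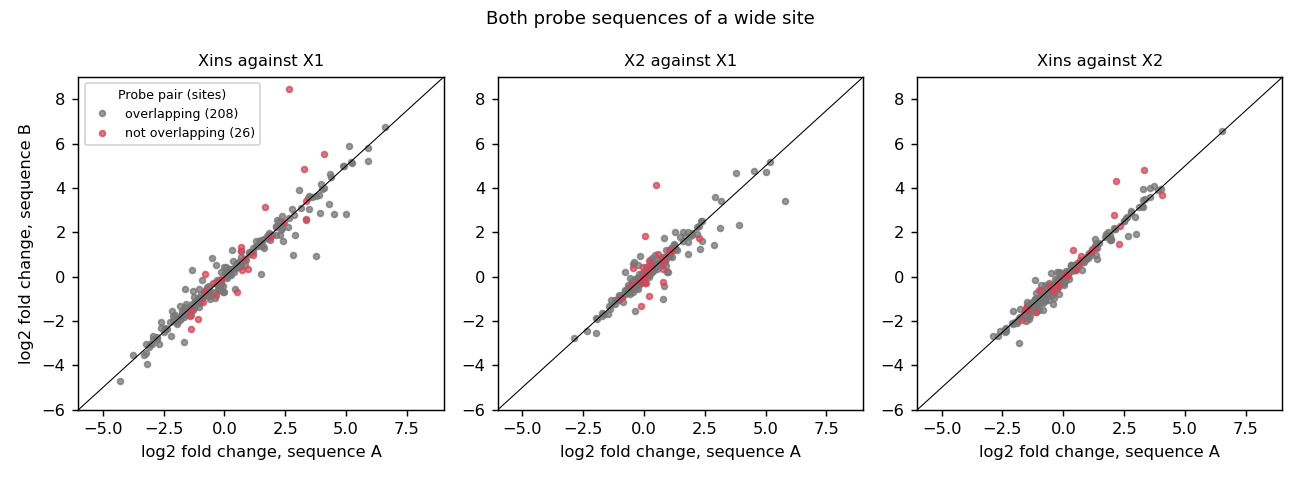
Log2 fold changes of both tested probe sequences at 234 wide sites (x and y axes, sequence A against sequence B), for each contrast. In overlapping pairs A is the upstream sequence; in pairs that do not overlap the order is arbitrary. The line marks equal change, and the point far above it in the left panel is Contig1945.

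A test of unequal change within a site (limma's diffSplice) covered 229 sites and called 1 in Xins against X1, 0.437% of those tested (adjusted p = 0.0295). In X2 against X1 and Xins against X2 it called 0, and 12, 9 and 1 sites had an unadjusted p under 0.05 in the 3 contrasts as ordered above. The called site was Contig1945, whose second sequence had -8.88 and -7.82 in X1 and -7.60 and -8.09 in X2, all at background, and -6.40 and -5.0 in Xins. Its fitted log2 fold change in Xins against X1 was 2.65, against 8.45 for the first sequence. As the second sequence was at background in X1, its change is known only as at least 2.88-fold higher in Xins, so the inequality within the site is not measured. The call was lost without X1 replicate 1, X1 replicate 2 or X2 replicate 1, and 13 sites were called with normexp and quantile normalization.

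The split of calls in Xins against X1 was counted by hexamer group of the wide sites. Of 470 tested sequences with neither hexamer, 140 were higher and 95 lower in Xins, with a median log2 fold change of 0.36. Of 294 with AATAAA, 79 were higher and 72 lower, with a median of -0.27. Of 82 with ATTAAA and no AATAAA, 29 were higher and 9 lower, with a median of 0.36. No test between these groups was run.

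Another site within 1000 nt on the same contig and strand was found for 7 wide sites, each time a narrow one, and at 1 of these pairs both were tested. At Contig430, minus strand, the wide site 63126 to 63201 had signals of 5.22 and 5.67 in X1, 3.62 and 4.42 in X2, and 2.05 and 2.79 in Xins. It fell by 3.02 on the log2 scale in Xins against X1 (adjusted p = 0.00286). The narrow site at 64017 to 64029, 816 nt away, had 1.19 and 1.61 in X1, 1.62 and 2.07 in X2, and 1.05 and 1.33 in Xins, a change of -0.21 (adjusted p = 0.645). The difference between the 2 sites was not tested. This pair was chosen by position and not by its values.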

How the data were processed

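Sorted-cell mRNA was taken with oligo-dT, amplified linearly and labelled with Cy3, per the labels' protocols. The deposited scanner tables hold intensity; per the file headers, Feature Extraction 11.5.1.1 subtracted background, detrended the processed signal and put a surrogate in place of low values (55.5% of spots). The authors' deposited value table was read as natural log from its slope against the scanner signal (0.694 to 0.695 per log2 unit, 0.717 for X2 replicate 1) and used as an alternative. How the authors normalized it is not stated. limma is named in the submitters' processing notes.

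Control spots and 11 outlier-marked spots were left out. Of 15208 spots, 15 to 67 per array were saturated and kept. Spots of identical sequence were averaged as log2 and centred on the 75th percentile. limma 3.58.1 (R 4.3.3) fitted all 6 arrays together over 1578 tested sequences, and p-values were adjusted over all of them (6.52 total degrees of freedom). The fit and diffSplice were tested on simulated data. The number of arrays limits the precision. For a bound, each array of the dim gate was raised to its lowest detected signal where the sequence lay below that. Named sites are, per contrast, the 2 largest rises and falls called with signal in both gates and no overlap between their arrays. Also named are the 5 widest, those called by diffSplice and the 3 largest F among sites called in every contrast. The brightest sites seen in 1 gate complete the list. Members, lists and rules were chosen with earlier results of these data known. Marker genes could not be matched to the models and were not run. Alternatives covered scaling, background correction, the authors' table, detection filters, averaging, the width threshold, a replicate block and leaving out each array.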

Additional observations from a re-analysis of the deposited data

How the results depend on the processing

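Of 179 values recomputed for the 12 named changes, 13 lost their call and 0 reversed. Many could not have reversed: the detection filters and the replicate block leave the fold change itself as it was. Leaving out an array could not reverse a sign either, since arrays of the gates compared did not overlap at named sites. The losses fell on 5 of the 12: X2 against X1 at Contig21132, Contig7138 and Contig226, and Xins against X2 at Contig587 and Contig169. Sizes moved too. With normexp and quantile normalization, each named change was smaller in size than in the main fit, except Contig169 (-2.72 against -2.67). Contig226 in X2 against X1 went from -2.88 to -0.85, and Contig11981 in Xins against X1 from -4.82 to -2.56. Leaving out 1 array gave 184 to 255 rises and 93 to 154 falls of wide sequences in Xins against X1, 8 to 74 and 0 to 15 in X2 against X1, and 69 to 177 and 14 to 66 in Xins against X2. The F test then called 265 to 327, and medians ran from 0.11 to 0.39, 0.10 to 0.23 and -0.17 to -0.0088. diffSplice called 0 to 1 in Xins against X1 and in X2 against X1, and 0 in Xins against X2. A gate left with 1 array was taken to vary like the others.

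With the percentile over all sequences, the medians were -0.026 in Xins against X1 and -0.077 in X2 against X1, with 25 falls there. With normexp and quantile normalization the medians were 0.028, 0.019 and -0.034, X2 against X1 had 28 rises and 16 falls, and diffSplice called 13 sites in Xins against X1, 7 in X2 against X1 and 11 in Xins against X2. The authors' value table gave 77 falls and a median of 0.74 in Xins against X1, and 34 falls and 0.28 in Xins against X2. With no detection filter there were 81 falls in Xins against X1, 35 rises and a median of -0.014 in X2 against X1, 18 falls and 0.11 in Xins against X2, 263 by the F test and 4 by diffSplice in Xins against X1. Among sequences detected on all 6 arrays, a smaller set, Xins against X1 had 159 rises, 160 falls and a median of -0.15, X2 against X1 had 28 rises, 5 falls and 0.0031, Xins against X2 had 88 rises, 105 falls and -0.28, and diffSplice called 0. Rises were then 49.8% of wide calls in Xins against X1 and 45.6% in Xins against X2. With probes not averaged, a larger set, there were 398 rises in Xins against X1, and 92 rises and 15 falls in X2 against X1. With wide set at over 25 nt the median in Xins against X1 was 0.29. Other causes were not tested.

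The replicate numbers are shared between gates, but the labels tie them to no common source. Deviations of same-numbered arrays correlated at 0.60 (X1 with X2), 0.47 (X1 with Xins) and 0.39 (X2 with Xins). With the replicate block, Xins against X1 had 326 rises and 292 falls, X2 against X1 195 and 110, and Xins against X2 226 and 275, which turned the majority of its wide calls to falls (45.1% rises). With the block the F test called 629, and diffSplice called 7 in Xins against X1.

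The gap in detection between wide and narrow was 34.3, 37.5 and 41.6 points in X1, X2 and Xins when 1 marked spot sufficed. In Xins it was 45.5 when all spots had to be marked, 43.7 with wide at over 25 nt, 44.3 with probes not averaged, and 48.1 within GC of over 20 to 30%. Leaving out 1 array gave 35.6 to 39.1, 39.9 to 42.4 and 44.4 to 44.7. Against narrow sites of 11 to 15 nt it was 7.47, 10.3 and 12.2 points, and against those of 15 nt 4.38, 7.53 and 2.82. These narrow sites differ from the others in width and probe length together. The last 2 comparisons and the GC range were chosen after seeing the data. At most 63.4% of wide sequences were above background on an array, which limits what can be said of the rest.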
